A study of Mus musculus with 2 samples.

Results

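The genes described here are 44 genes of DNA replication and mitosis, chosen by name for what their products do and not by their values. Earlier results of these data were known when the genes and thresholds were chosen. All 44 were found among the 22216 gene rows of the deposited table, and 43 of them reached an RPKM (reads scaled to gene length and sequencing depth) of 1 in at least 1 library, as did 11141 genes in all. Ttk fell just short of that level. Whole spleen RNA was sequenced from mice of genotype NOD.L7 and from mice of genotype NOD.g7, and each genotype is 1 library, for which the spleens of 3 mice were pooled. The non-obese diabetic (NOD) strain is an inbred mouse used as a model of type 1 diabetes. The labels do not say what g7 and L7 stand for, and they give no age, sex or treatment.

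A dividing cell copies its DNA in S phase and separates the copies in mitosis. In S phase the MCM helicase, loaded onto DNA in advance, unwinds the double strand, the PCNA ring holds the polymerases on the template, and a set of enzymes supplies deoxynucleotides. In mitosis cyclin B with Cdk1 starts the process, Aurora and Polo kinases build the spindle, a checkpoint holds the cell until every chromosome is attached, and the anaphase-promoting complex then releases the sister chromatids. In the spleen these genes mark the small share of cells that divide, such as germinal centre B cells, plasmablasts, activated T cells and erythroid precursors.

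Between the NOD.L7 and NOD.g7 spleens none of these genes differed 2-fold, and the shares of them past either threshold were near those of all genes, so the counts say nothing particular to the set. None of the 43 differed by the size rule, an absolute log2 ratio of at least 1 on the log2(RPKM + 1) scale, against 0.709% of all genes at an RPKM of 1 or more. With a smaller step of 0.25 on that scale, 3 of 43 were higher in NOD.L7, namely the cytokinesis motor gene Kif23, the chromosomal passenger gene Cdca8 and the helicase gene Mcm2, against 8.82% of all genes. None of the 43 was lower by that step, against 4.74% of all genes, although Ube2c lay just inside it at -0.25 and also passed when ratios were centred on their median or scaled by TMM, which gave 3 higher and 1 lower. Over the 43 genes the median log2 ratio was 0.05, the quartiles were -0.07 and 0.16, and the values ran between -0.25 and 0.33. Over all genes the median was 0.02, the quartiles were -0.06 and 0.10, and the values ran between -3.59 and 5.42. The middle of the set was thus spread a little more widely than that of all genes, while it held none of the extremes. The RPKM values of the 43 genes summed to 386 in NOD.L7 and 375 in NOD.g7. There is no replicate library, so how far mice of 1 genotype vary is unknown, and each difference compares only these libraries. In whole spleen RNA, a different number of dividing cells and a different amount of RNA per dividing cell cannot be told apart.

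**Figure D1:**
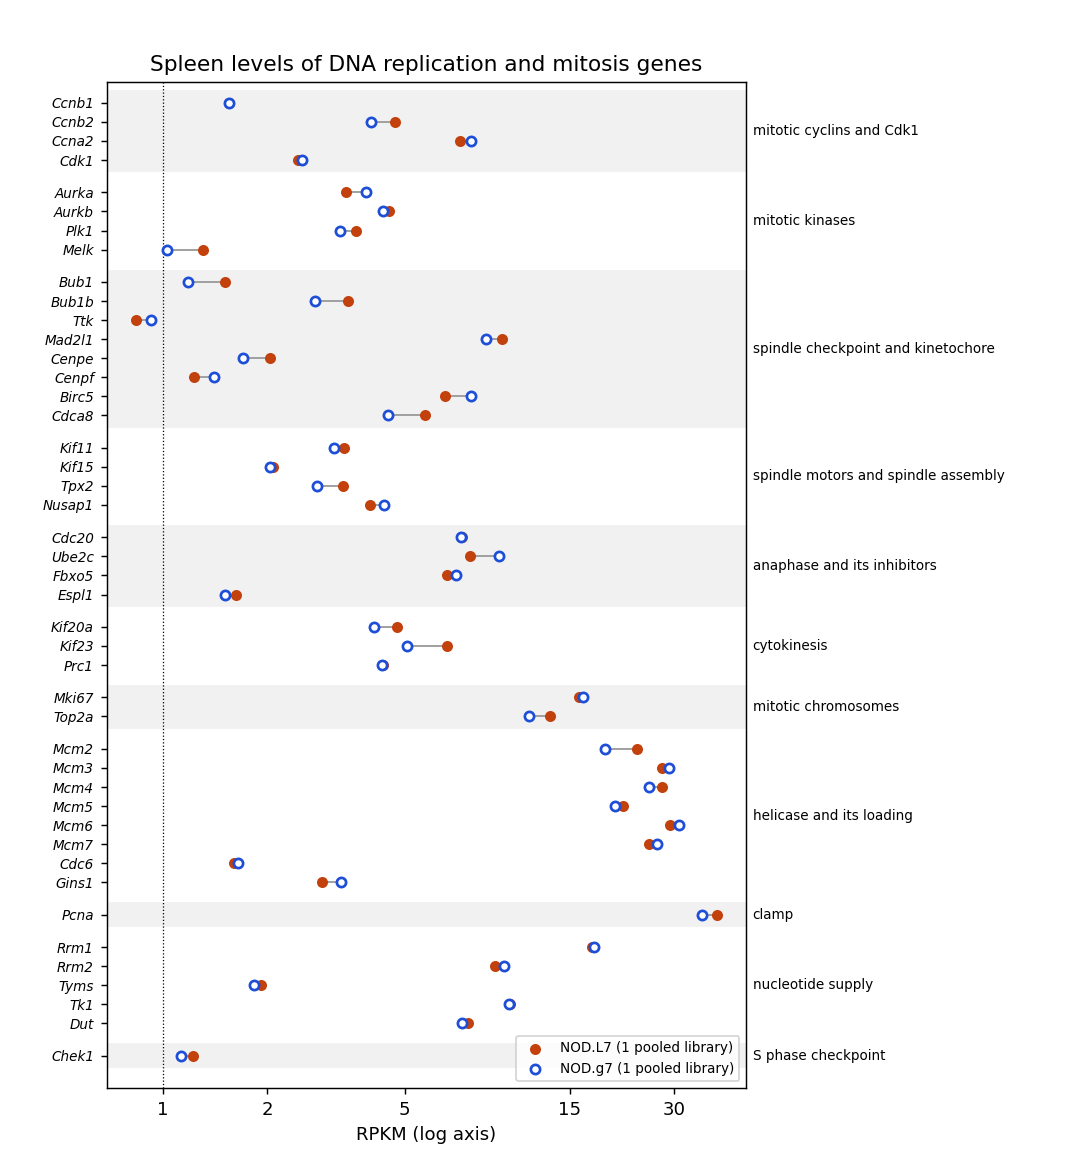
RPKM of each of the 44 genes (horizontal axis, log scale) in the NOD.L7 library (filled) and the NOD.g7 library (open), grouped by role from mitotic cyclins at the top to the S phase checkpoint at the bottom. Each dot is 1 pooled library, the dotted line marks an RPKM of 1, and the members span 0.835 to 39.97 in NOD.L7 and 0.927 to 36.1 in NOD.g7.

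Genes of the 2 arms of the set differ in the elements known to time them, which is why some of their promoters are shown. Mitotic genes are typically repressed in resting cells through the CHR element (TTTGAA) and carry CCAAT boxes, whereas S phase genes are typically controlled by E2F factors, whose core sites include TTCCCGC and TTGGCGC. A RefSeq promoter (GRCm38.p6) was found for 38 of the 44 genes, and the 250 bases before the start were searched on both strands. CCAAT was present in 80.0% of 25 mitosis promoters and 61.5% of 13 replication promoters, against 33.8% of 32851 promoters in all. The CHR element was present in 36.0% of mitosis promoters and 7.69% of replication promoters, against 16.0% of all. An E2F core was present in 16.0% of mitosis promoters and 38.5% of replication promoters, against 5.62% of all. The same order held in the mitosis and replication genes outside the set, with the CHR element in 36.4% of 55 and 11.6% of 43 promoters and an E2F core in 14.5% and 25.6%. A match describes letters in a window and not a bound site.

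The stretches below are the 150 bases before the start of the mitosis gene furthest above in NOD.L7 (Kif23, chr9:61946800-61946949, minus strand), the mitosis gene furthest below (Ube2c, chr2:164769779-164769928, plus strand), the replication gene furthest above (Mcm2, chr6:88898781-88898930, minus strand) and the B-type cyclins (Ccnb1, chr13:100786487-100786636, and Ccnb2, chr9:70421555-70421704, both minus strand), in GRCm38.p6 and 5′ to 3′ along each gene. The replication gene furthest below was Gins1, which is named only. Capitals mark the CHR element, the CCAAT box and the E2F core in either orientation.
Kif23: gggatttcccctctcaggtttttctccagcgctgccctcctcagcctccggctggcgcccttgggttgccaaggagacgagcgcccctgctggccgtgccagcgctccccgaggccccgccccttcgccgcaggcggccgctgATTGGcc
Ube2c: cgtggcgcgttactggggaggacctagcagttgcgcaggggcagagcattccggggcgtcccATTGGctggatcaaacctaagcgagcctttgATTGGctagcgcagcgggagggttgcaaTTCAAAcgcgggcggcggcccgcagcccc
Mcm2: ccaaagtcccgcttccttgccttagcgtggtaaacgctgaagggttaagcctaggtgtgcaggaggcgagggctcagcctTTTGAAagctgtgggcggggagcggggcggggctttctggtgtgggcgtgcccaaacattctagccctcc
Ccnb1: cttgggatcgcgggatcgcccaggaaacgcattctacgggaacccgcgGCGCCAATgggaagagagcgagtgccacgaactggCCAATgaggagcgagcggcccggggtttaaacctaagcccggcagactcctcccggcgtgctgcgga
Ccnb2: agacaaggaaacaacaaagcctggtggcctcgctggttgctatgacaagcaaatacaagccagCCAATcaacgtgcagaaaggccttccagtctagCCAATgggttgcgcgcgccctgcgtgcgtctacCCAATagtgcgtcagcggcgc
Kif23 and Ube2c, at opposite ends of the mitosis genes by ratio, both hold CCAAT boxes within these 150 bases, 1 in Kif23 and 2 in Ube2c, and Ube2c also holds a CHR element 29 bases before its start. Mcm2 was the 1 gene of 13 replication genes with a CHR element. Ccnb2 shows 3 CCAAT boxes and Ccnb1 shows 2, and the first of these in Ccnb1 overlaps an E2F core in the opposite orientation.

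Entry into mitosis is driven by Cdk1 with cyclins A and B, and the genes of this engine had nearly equal levels in both libraries. Ccnb1, a B-type cyclin, was at an RPKM of 1.56 in NOD.L7 and 1.55 in NOD.g7. Ccnb2, the other B-type cyclin, was at 4.69 in NOD.L7 and 4.01 in NOD.g7, 1.17-fold higher with a 95% counting interval of 1.002 to 1.36. Ccna2, which acts in S phase and early mitosis, was at 7.22 in NOD.L7 and 7.76 in NOD.g7, and the kinase gene Cdk1 at 2.46 in NOD.L7 and 2.52 in NOD.g7. The counting intervals of Ccnb1, Ccna2 and Cdk1 all hold a fold of 1. These intervals rest on fragments approximated from the RPKM, the transcript length and the depth, and they cover counting error only.

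The mitotic kinases were likewise close. Aurka, which acts at the spindle poles, was at 3.39 in NOD.L7 and 3.86 in NOD.g7, and Aurkb, the kinase of the chromosomal passenger complex, was at 4.50 in NOD.L7 and 4.31 in NOD.g7. Plk1, the Polo kinase that acts from mitotic entry to cytokinesis, was at 3.61 in NOD.L7 and 3.26 in NOD.g7. All 3 intervals hold a fold of 1. Melk, a kinase gene of dividing cells, was at the low level of 1.31 in NOD.L7 and 1.03 in NOD.g7, 1.27-fold higher (interval 1.03 to 1.58).

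The spindle checkpoint and kinetochore genes were the role with the most spread, with an SD over genes of 0.19 on the log2(RPKM + 1) scale. That SD is over 7 kept genes, which include Cdca8 and Birc5, described in the next paragraph, and leave out Ttk. The lowest and highest log2 ratios of this role, -0.21 and 0.30, are those of Birc5 and Cdca8, so the spread rests largely on them. Bub1 and Bub1b, kinase-family genes of the checkpoint, were higher in NOD.L7, Bub1 at 1.52 in NOD.L7 and 1.19 in NOD.g7, and Bub1b at 3.43 in NOD.L7 and 2.75 in NOD.g7. Their folds were 1.28 (interval 1.06 to 1.55) and 1.25 (interval 1.11 to 1.40). Mad2l1, which encodes the checkpoint protein that restrains Cdc20, was at 9.57 in NOD.L7 and 8.60 in NOD.g7, and Cenpe, a kinetochore motor gene, at 2.04 in NOD.L7 and 1.71 in NOD.g7. In the other direction Cenpf, a large kinetochore protein gene, was at 1.23 in NOD.L7 and 1.40 in NOD.g7. Ttk, the Mps1 checkpoint kinase gene and the lowest of the 44, was at 0.835 in NOD.L7 and 0.927 in NOD.g7. By value, then, the checkpoint kinase genes did not share a direction, and the interval of Ttk holds a fold of 1.

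Survivin and borealin, which bind each other in the chromosomal passenger complex, diverged. The borealin gene Cdca8 (mm9 chromosome 4, 124595709 to 124614161) was at 5.74 in NOD.L7 and 4.48 in NOD.g7, 1.28-fold higher (interval 1.12 to 1.47). The survivin gene Birc5 was at 6.54 in NOD.L7 and 7.75 in NOD.g7, a fold of 0.84 (interval 0.78 to 0.91). These intervals do not overlap, and the third subunit named above, Aurkb, had a fold between theirs, at 1.04. Incenp, a further gene of this complex from outside the set, was at 12.9 in NOD.L7 and 11.5 in NOD.g7. Its fold of 1.11 (interval 1.05 to 1.185) was also between those of Birc5 and Cdca8.

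Among the spindle genes, Kif11, the motor that pushes the poles apart, was at 3.33 in NOD.L7 and 3.12 in NOD.g7, and Kif15, a motor of related function, at 2.08 in NOD.L7 and 2.04 in NOD.g7. Tpx2, the activator of Aurora A, was at 3.32 in NOD.L7 and 2.79 in NOD.g7, 1.19-fold higher (interval 1.07 to 1.32), although the gene of its kinase Aurka was lower by value. Nusap1, a microtubule-binding protein gene, was at 3.98 in NOD.L7 and 4.37 in NOD.g7.

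The genes around anaphase showed the furthest value below 0. Ube2c (mm9 chromosome 2, 164595429 to 164598402), the ubiquitin-conjugating enzyme of the anaphase-promoting complex, was at 7.70 in NOD.L7 and 9.35 in NOD.g7, a fold of 0.82 (interval 0.72 to 0.94). Cdc20, the activator of the same complex, was at 7.32 in NOD.L7 and 7.29 in NOD.g7. The Cdc20 interval of 0.90 to 1.12 holds a fold of 1 and overlaps that of Ube2c. Fbxo5, the Emi1 inhibitor of the complex, was at 6.62 in NOD.L7 and 7.02 in NOD.g7, and Espl1, the separase that cuts cohesin, was at 1.63 in NOD.L7 and 1.52 in NOD.g7.

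In cytokinesis, Kif23 (mm9 chromosome 9, 61765085 to 61794606), the motor of the central spindle, was at 6.62 in NOD.L7 and 5.08 in NOD.g7. Its fold of 1.30 (interval 1.19 to 1.42) was the highest of the 44 genes. Kif20a, which carries the passenger complex to the midzone, was at 4.77 in NOD.L7 and 4.08 in NOD.g7, and Prc1, which bundles midzone microtubules, at 4.34 in NOD.L7 and 4.29 in NOD.g7.

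Mki67, the gene of the Ki-67 proliferation antigen, was at 16.0 in NOD.L7 and 16.4 in NOD.g7, with a narrow interval of 0.946 to 1.005. Top2a, the topoisomerase that untangles sister chromatids and like Mki67 a standard label of dividing cells, was at 13.1 in NOD.L7 and 11.5 in NOD.g7, 1.15-fold higher (interval 1.09 to 1.20). These were the most abundant mitosis genes in both libraries, and they differ in which library was higher.

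**Figure D2:**
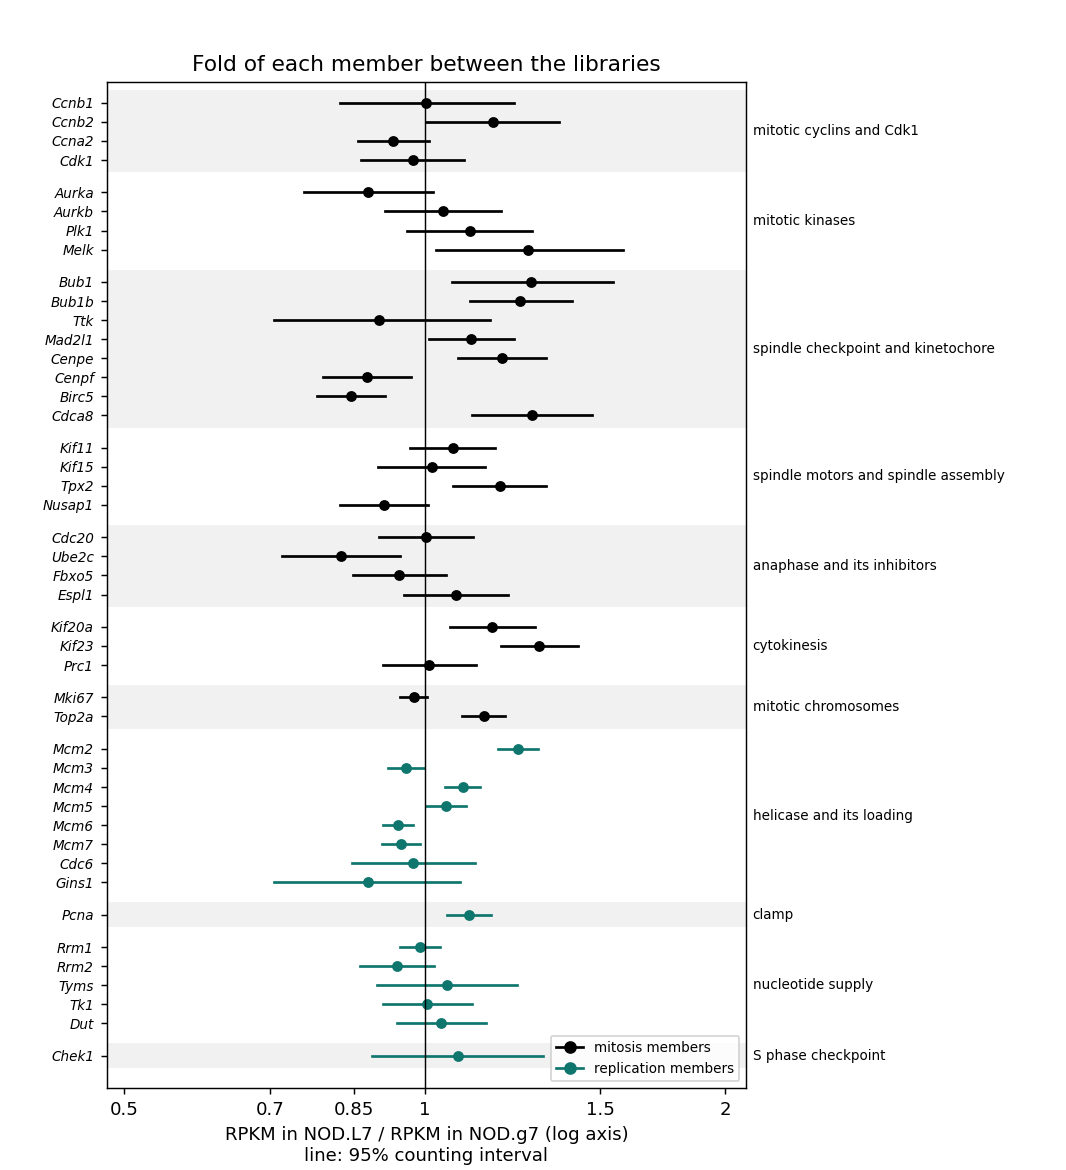
RPKM in NOD.L7 divided by RPKM in NOD.g7 (horizontal axis, log scale) for each of the 44 genes, by role, with the 95% counting interval as a line. All points lie between 0.82 (Ube2c) and 1.30 (Kif23), and the Mcm2 line stands clear of those of the other MCM genes.

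The replication genes were more abundant than the mitosis genes per length, with a median RPKM of 17.4 in NOD.L7 and 17.6 in NOD.g7 over 15 genes, against 4.16 in NOD.L7 and 4.04 in NOD.g7 over 28 mitosis genes. Their median log2 ratio was 0.01, and it turned to -0.01 with median centring or a TMM factor, so it has no firm sign. The mitosis genes had a median log2 ratio of 0.06, which turned to -0.01 over the 10 of them with an RPKM of at least 5, and their SD over genes was 0.15, against 0.11 for the replication genes.

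The MCM helicase is a ring of 6 different subunits, each present once, and its 6 genes had similar levels, between 21.3 and 29.1 in NOD.L7 and between 18.9 and 31.0 in NOD.g7. Mcm2 (mm9 chromosome 6, 88833468 to 88848774) was at 23.5 in NOD.L7 and 18.9 in NOD.g7, 1.24-fold higher (interval 1.18 to 1.30). Mcm4 was at 27.7 in NOD.L7 and 25.3 in NOD.g7, and Mcm5 at 21.3 in NOD.L7 and 20.3 in NOD.g7. Mcm3 was lower by value, at 27.7 in NOD.L7 and 29.0 in NOD.g7. Mcm6 was at 29.1 in NOD.L7 and 31.0 in NOD.g7, and Mcm7 at 25.5 in NOD.L7 and 26.9 in NOD.g7. So 3 subunit genes were higher and 3 lower by value, and each of the 6 counting intervals lay on the same side of 1 as its fold. The interval of Mcm2 overlapped none of the other 5. Cdc6, which loads the ring, was at 1.61 in NOD.L7 and 1.65 in NOD.g7, and Gins1, a subunit of the active helicase, at 2.88 in NOD.L7 and 3.28 in NOD.g7.

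Pcna, the sliding clamp, was the most abundant of the 44 genes, at 39.97 in NOD.L7 and 36.1 in NOD.g7, 1.11-fold higher (interval 1.05 to 1.17). The nucleotide supply genes were the most alike of any role with several genes, with an SD over genes of 0.05 on the log2(RPKM + 1) scale and all 5 intervals holding a fold of 1. Rrm1 and Rrm2, the subunits of ribonucleotide reductase, were at 17.4 and 9.11 in NOD.L7, against 17.6 and 9.71 in NOD.g7. The thymidylate genes followed the same pattern. Tyms, the thymidylate synthase, was at 1.93 in NOD.L7 and 1.83 in NOD.g7, and Tk1, the thymidine kinase, at 10.09 in NOD.L7 and 10.04 in NOD.g7. Dut, which removes dUTP, was at 7.61 in NOD.L7 and 7.33 in NOD.g7, and the S phase checkpoint kinase gene Chek1 at 1.22 in NOD.L7 and 1.13 in NOD.g7.

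Over the 43 genes the counting interval lay above a fold of 1 in 15, against 28.0% of all genes with a length, and below it in 6, against 18.9%. The intervals leave out the variation between mice and libraries, and by this measure too the set was mixed in direction, with 22 intervals holding a fold of 1. By sign alone 27 of the 43 genes were higher and 16 lower in NOD.L7, against 6262 higher and 4879 lower of all 11141 genes. Of the 43, 5 changed sign when the ratios were centred on the median of all genes.

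Some levels are uncertain. In 8 of the 44 genes another annotated transcript, in most cases a processed pseudogene, matched at least 50% of the longest coding transcript at 90% identity or more, and no source used here says how reads that match several places were counted. These were Ccnb1, Plk1, Kif11, Cdc20, Fbxo5, Mcm4, Mcm7 and Pcna, and Ccnb1 had 4 such copies. The longest transcripts of Kif20a, Prc1, Ube2c and Ccna2 share 34.7%, 26.8%, 25.3% and 17.3% of their length with the neighbouring genes Cdc23, Rccd1, Tnnc2 and Exosc9, whose reads cannot be told apart there without strand.

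On chromosome 7 lie 4 of the genes, Prc1, Rrm1, Plk1 and Mki67, and all their intervals hold a fold of 1, with log2 ratios between -0.03 and 0.12. Of 867 genes of chromosome 7 at an RPKM of 1 or more, 12 were higher and 5 lower by the size rule, against 43 higher and 36 lower of 11141 genes in all. Mki67 (142881471 to 142908062 in mm9) is the most distal of the 4.

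The wider pathway was counted in the same way. Of 111 other replication and mitosis genes at an RPKM of 1 or more, none passed the size rule, 8 were higher by the step of 0.25, against 8.82% of all genes, and 2 were lower, against 4.74%. The median log2 ratio was 0.03. Among 51 other replication genes the furthest were higher in NOD.L7. Gmnn, the geminin that blocks helicase reloading, was at 3.99 in NOD.L7 and 2.98 in NOD.g7, and Dck, a nucleoside salvage kinase, at 23.5 in NOD.L7 and 19.6 in NOD.g7. Asf1b, a histone chaperone, was at 8.76 in NOD.L7 and 7.20 in NOD.g7. The helicase-nuclease gene Dna2 and Dbf4, the activator of the Cdc7 kinase, had log2 ratios of 0.22 and 0.20, inside the step.

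Of 60 other mitosis genes, 5 were higher by that step, against 8.82% of all genes, and 2 were lower, against 4.74%. Spc24, a kinetochore subunit of the Ndc80 complex, was at 2.09 in NOD.L7 and 1.33 in NOD.g7, 1.57-fold higher (interval 1.20 to 2.06). Cdc25b, a phosphatase that activates Cdk1, was at 26.7 in NOD.L7 and 34.6 in NOD.g7, a fold of 0.77 (interval 0.74 to 0.80), and Wee1, the kinase that opposes it, was at 2.79 in NOD.L7 and 2.14 in NOD.g7. Cdc25b and Wee1, which were named for their large ratios, differed in opposite directions, and Cdk1 itself was level. Their relatives did not share this pattern. The kinase gene Pkmyt1 was at 6.42 in NOD.L7 and 6.38 in NOD.g7. The phosphatase gene Cdc25c, below an RPKM of 1, was at 0.583 in NOD.L7 and 0.505 in NOD.g7. The microtubule depolymerase gene Kif2c was at 1.96 in NOD.L7 and 1.42 in NOD.g7, and Gtse1, a microtubule-associated protein gene, was at 1.79 in NOD.L7 and 1.29 in NOD.g7.

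**Figure D3:**
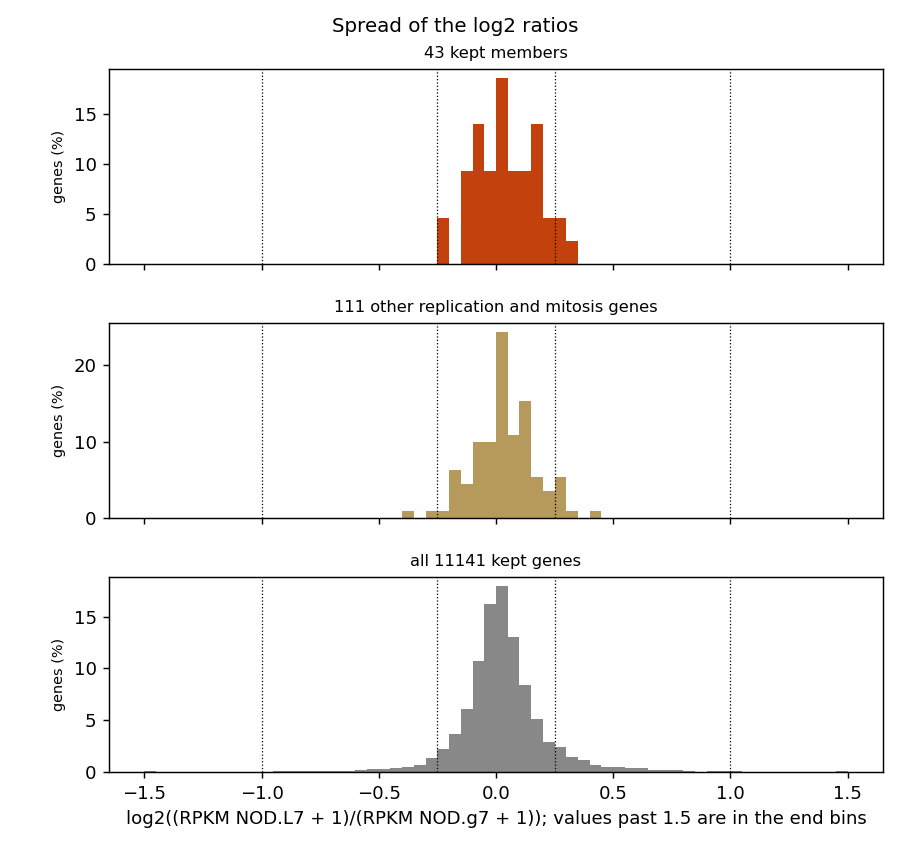
Share of genes (vertical axis, percent) by log2 ratio of NOD.L7 over NOD.g7 on the log2(RPKM + 1) scale (horizontal axis, bins of 0.05) for the 43 members, 111 other replication and mitosis genes and all 11141 genes at an RPKM of 1 or more. Dotted lines mark 0.25 and 1 in each direction, and no gene of the upper panels lies past 1.

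The cell cycle transcription factors and their partners, activators and repressors together, were also mixed. Of 17 kept genes 1 was higher by the step of 0.25, against 8.82% of all genes, and 1 was lower, against 4.74%. The median log2 ratio was 0.02, as it was over all genes. E2f1, an activator of S phase genes, was at 3.94 in NOD.L7 and 2.90 in NOD.g7, and E2f5, a repressor-type member of the family, was at 5.95 in NOD.L7 and 5.10 in NOD.g7. E2f2, another activator, was lower by value at 12.7 in NOD.L7 and 14.9 in NOD.g7. The E2F partner genes Tfdp1 and Tfdp2 went opposite ways, Tfdp1 at 19.3 in NOD.L7 and 16.9 in NOD.g7, and Tfdp2 at 3.87 in NOD.L7 and 4.84 in NOD.g7.

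Of the 10 cell cycle brakes at an RPKM of 1 or more, 5 were higher by the step of 0.25, against 8.82% of all genes, none was lower, and the median log2 ratio was 0.16. Cdkn1a, the p21 inhibitor of cyclin-dependent kinases, was at 4.55 in NOD.L7 and 2.82 in NOD.g7, 1.61-fold higher (interval 1.38 to 1.88). Cdkn2c, the p18 inhibitor, was at 4.35 in NOD.L7 and 3.42 in NOD.g7. Tob1, an antiproliferative gene of lymphocytes, was at 16.8 in NOD.L7 and 12.9 in NOD.g7, and the stress-inducible genes Gadd45a and Gadd45b were at 11.6 and 13.6 in NOD.L7, against 8.75 and 11.2 in NOD.g7. None of these passed the size rule. The other 5, which were Cdkn1b, Btg1, Btg2, Ccng2 and Cdkn2d, had log2 ratios between -0.09 and 0.06.

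Lists of cell type markers differed between the same libraries, in both directions, and their counts are set against the 8.82% of all genes that were higher and the 4.74% that were lower by the step of 0.25. Spleen markers were present, with the B cell gene Cd79a at 526 in NOD.L7 and 598 in NOD.g7 and the T cell gene Cd3g at 194.5 in NOD.L7 and 195.3 in NOD.g7. Of 9 genes listed for germinal centre B cells 7 were higher in NOD.L7 by the step of 0.25 and none was lower. The median log2 ratio of the 9 was 0.62, and their RPKM values summed to 91.7 in NOD.L7 and 80.2 in NOD.g7. The 9 include Gpr183, which germinal centre B cells turn down, so it is no marker of them. Gpr183 was at 23.7 in NOD.L7 and 27.0 in NOD.g7, a large part of both sums. Of 10 erythroid precursor markers 7 were lower by that step and none was higher, with a median of -0.83 and sums of 61.1 in NOD.L7 and 122.7 in NOD.g7. The plasma cell and granulocyte precursor lists were nearer 0 by their medians. By the same step 1 of 6 plasma cell markers was higher and none lower (median 0.10). Of 4 granulocyte precursor markers at an RPKM of 1 or more, 1 was higher and 2 were lower (median -0.08). Ms4a3, also on that list, was below that level and higher in NOD.L7, at 0.632 against 0.335 in NOD.g7. All 5 NK cell markers were lower by the step (median -0.97), with sums of 63.3 in NOD.L7 and 146.8 in NOD.g7, and all 5 red pulp macrophage markers were higher (median 0.69), with sums of 344.5 in NOD.L7 and 224.5 in NOD.g7. Of 6 B cell markers 3 were lower and none higher (median -0.26), and of 6 T cell markers 3 were higher and 1, Cd8a, was lower. No marker of these lists was at 0, and the part of these cells in the values of the replication and mitosis genes was not tested.

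Genes of the pancreas, which lies beside the spleen, were low. Ins2 was listed at 0 in both libraries, and Cpa1 was listed at 0 in NOD.L7 and at 0.458 in NOD.g7. Cela1 was at 2.65 in NOD.L7 and 2.29 in NOD.g7, Ctrl at 1.34 in NOD.L7 and 1.40 in NOD.g7, and Prss2 at 0.277 in NOD.L7 and 0.667 in NOD.g7. Of these 5 genes, then, 3 had values above 0 in both libraries.

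**Figure D4:**
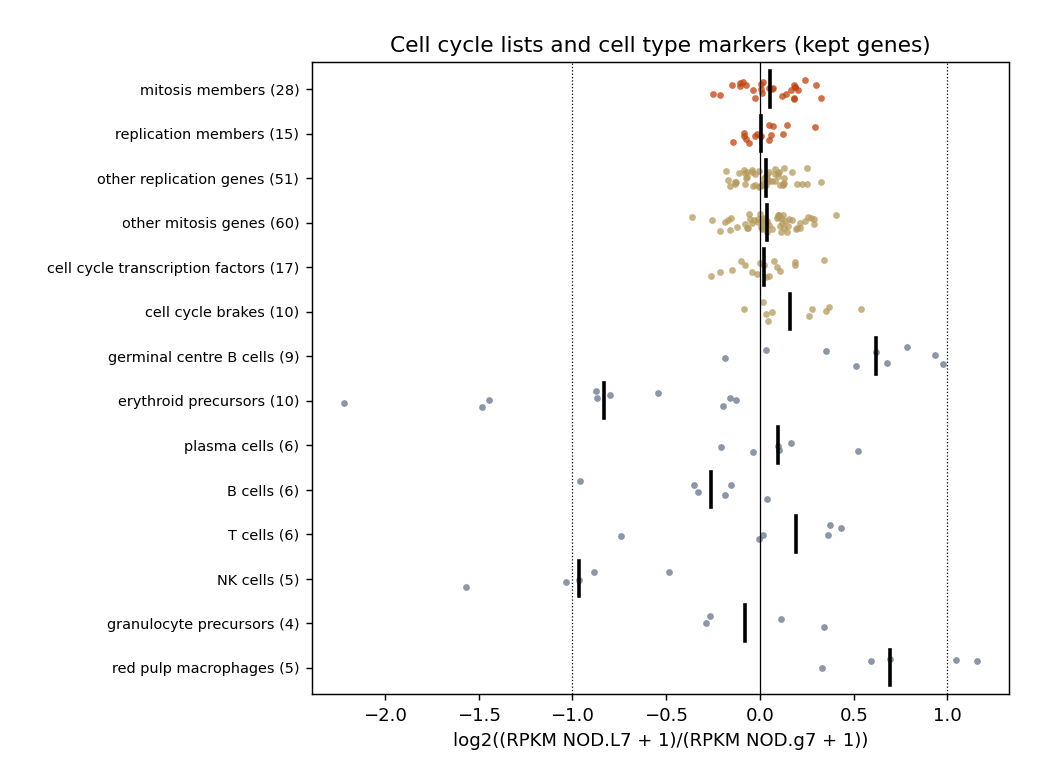
Log2 ratio of NOD.L7 over NOD.g7 on the log2(RPKM + 1) scale (horizontal axis) for each gene at an RPKM of 1 or more (dots) with the median of each list (bars), and the number of genes in brackets. The mitosis and replication members have medians of 0.06 and 0.01, the germinal centre list (Gpr183 included) has one of 0.62 and erythroid markers one of -0.83.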

How the data were processed

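The authors deposited 1 table of 22216 genes with mm9 coordinates and 1 RPKM value per library. Per the submitters' processing notes, CASAVA 1.8.2 and SAMtools 0.1.18 were used with build mm9. The gene models, strandedness and further settings are not given in any source used here. The column headed NOD.LC7 was read as NOD.L7, and that headed NOD as NOD.g7. Log2 ratios divide the RPKM of NOD.L7 plus a pseudocount of 1 by that of NOD.g7 plus 1, which shrinks the ratios of low genes. Genes were kept where either library reached an RPKM of 1. Folds are plain ratios of RPKM. With 1 library per group no test was possible.

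The depth was worked out from steps of the deposited RPKM values of single-exon genes under 2500 bases, as 12.1 Gb of mapped sequence in NOD.L7 and 9.13 Gb in NOD.g7. All 165 values used in NOD.L7 and 149 in NOD.g7 lay within 0.15 of a whole base. Fragments were approximated as 200 bases over the longest RefSeq-linked transcript in GENCODE M21 (11039 genes), and exact 95% intervals (Clopper-Pearson, scipy 1.17.1) cover counting error only. Copies were sought with BLAST+ 2.17.0. The calculations were tested on simulated data.

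The members, lists and thresholds were chosen with earlier results of these data known. All members are described, and of the other lists the 5 genes, or 3 for cell types, with the largest absolute log2 ratio could be named. Some such genes are not reported here. Cd79a and Cd3g are named outside that rule as defining markers of tissue. Gpr183, Ms4a3, Pkmyt1, Cdc25c and Incenp are also named outside it, after their values were seen. All pancreas genes and all cell cycle brakes at an RPKM of 1 or more are named, a choice made after their values were seen. Other settings tried were pseudocounts of 0.1 and 0.5, all genes unfiltered, an RPKM minimum of 5, median centring, a TMM factor (trimming 30% of ratios and 5% of levels), and the members without those of chromosome 7.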

Additional observations from a re-analysis of the deposited data

How the results depend on the processing

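No paired analysis was possible because there was a single library for each genotype, so leaving out replicates was not possible either. No member passed the size rule under any alternative named in the methods. The number of members past the step of 0.25, which was 3 of 43, became 7 at a pseudocount of 0.1, with 6 higher in NOD.L7 and 1 lower, and 6 at 0.5, with 5 higher and 1 lower. These are settings that widen the ratios of low genes by construction. Over all genes 11.3% were then higher and 6.29% lower at 0.1, and 10.0% higher and 5.56% lower at 0.5. Without a filter the number stayed 3, of 44 members, all higher, where 5.22% of all genes were higher and 2.98% lower. At a filter of RPKM 5 it also stayed 3, now of 21 members, all higher, where 6.20% of all genes were higher and 3.40% lower. In each of these settings the members' share of higher genes was above that of all genes. It was below that share in the values reported, with median centring, with a TMM factor and without the members of chromosome 7. The count for the other replication and mitosis genes, 10 of 111, became 17 with a pseudocount of 0.1 and 4 of 54 at that filter, which leaves fewer genes. The median log2 ratio of the members ran between 0.01 at that filter and 0.05 with a pseudocount of 0.1. That of the mitosis members was -0.01 at that filter, over 10 genes, and positive under the other alternatives. Of results for single genes, 488 kept their side of the size rule and 7, all for genes outside the set, newly passed it. Depth limits the genes near an RPKM of 1, such as Melk, whose counting interval ran between 1.03 and 1.58.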

Other observations

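The G1 cyclins, whose kinases act before these genes are switched on, were looked at after their values were seen. All 3 D-type cyclin genes were higher in NOD.L7 by value. Ccnd1 was at an RPKM of 25.3 in NOD.L7 and 10.5 in NOD.g7, Ccnd2 at 75.5 in NOD.L7 and 62.7 in NOD.g7, and Ccnd3 at 115 in NOD.L7 and 99.5 in NOD.g7. Both E-type cyclin genes were lower by value, Ccne1 at 5.19 in NOD.L7 and 6.29 in NOD.g7 (fold 0.82, counting interval 0.74 to 0.93) and Ccne2 at 1.03 in NOD.L7 and 1.29 in NOD.g7. Of these 5 genes Ccnd1 alone passed the size rule, and the log2 ratios of the other 4, between -0.24 and 0.26, lay within the range of the replication and mitosis genes.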
